A study of Arabidopsis thaliana with 12 samples.

Results

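AT1G06233 and AT1G06237 are adjacent small nucleolar RNA (snoRNA) genes on the plus strand of chromosome 1 of Arabidopsis thaliana, described here in RNA crosslinked to tagged fibrillarin. RNA was sequenced after crosslinking and immunoprecipitation (CLIP-seq) from 14-day-old Col-0 seedlings. There were 4 libraries each from plants expressing GFP-FIB1, plants expressing CFP-FIB2 and plants expressing GFP alone, and all seedlings were irradiated with ultraviolet light. GFP alone, a fluorescent protein without fibrillarin, was the negative control, and no library of CFP alone or of input RNA was used here. The promoter of each transgene, the number of lines and whether the plants kept their own fibrillarin genes are not stated in the labels. The labels do not say whether replicates came from separate cultures of seedlings, so p-values below measure only the spread between libraries, which may be technical.

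The members were all plus-strand peaks between 10300351 and 10300565 of chromosome 1 (TAIR10.1 coordinates), split by gene. Of 1037099 peaks in the 12 libraries, 53 lay there, 26 in AT1G06233 and 27 in AT1G06237, and 0 lay in the 35 nt between the genes. These 2 genes are among 35566 genes named for at least 1 peak. They were chosen because their rises over GFP were already known, so all their comparisons with GFP are descriptions without a test.

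Box C/D snoRNAs guide the methylation of ribose in other RNAs, mainly ribosomal RNA. A short stretch upstream of a D box, or of an inner copy of it (D′), pairs with the target, and fibrillarin methylates the target nucleotide paired with the fifth base upstream of that box. The C and D boxes lie near the 5′ and 3′ ends of the RNA and carry the protein core with fibrillarin, NOP56, NOP58 and a small L7Ae-family protein. Plant snoRNA genes often stand in clusters that are copied into one transcript and cut apart.

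AT1G06233 is annotated as AtU31a, covers 10300351 to 10300453 and is 103 nt long. AT1G06237 is annotated as AtsnoR4a, covers 10300489 to 10300565 and is 77 nt long. They are the first genes of a row that goes on with AT1G06243 (AtU33a), AT1G06247 (AtU51a) and AT1G06253 (AtsnoR5a). A second row with the b copies of all 5 lies within the protein-coding gene AT1G29465. Its first genes are AT1G06263 (AtU31b, 10308751 to 10308840, 90 nt) and AT1G06267 (AtsnoR4b, 10308881 to 10308957, 77 nt). The 4 sequences are shown because much of each gene recurs in its copy and because peak positions below are counted from their 5′ ends. Capitals mark a C box (ATGATGA or GTGATGA, searched within 30 nt of the 5′ end) and each CTGA of a D box or inner D-like box, on the plus strand, from the TAIR10.1 reference genome:
AT1G06233: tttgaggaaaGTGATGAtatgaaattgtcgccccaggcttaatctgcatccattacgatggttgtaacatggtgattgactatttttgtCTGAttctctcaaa
AT1G06237: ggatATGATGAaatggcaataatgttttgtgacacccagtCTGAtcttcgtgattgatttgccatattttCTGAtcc
AT1G06263: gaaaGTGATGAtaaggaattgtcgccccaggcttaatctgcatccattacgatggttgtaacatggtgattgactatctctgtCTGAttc
AT1G06267: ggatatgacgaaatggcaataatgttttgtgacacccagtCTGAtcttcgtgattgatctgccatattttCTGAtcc

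The C box stood at positions 11 to 17 of AT1G06233 and 5 to 11 of AT1G06237. AT1G06233 had 1 CTGA, at positions 90 to 93, and AT1G06237 had an inner CTGA at positions 41 to 44 and a last one at 71 to 74. Both genes also held GTGATTG, a stretch like a C box in the second part of the gene, at positions 72 to 78 of AT1G06233 and 50 to 56 of AT1G06237. The stretch was present in both copies as well. On either strand it was found in 3 of the 123 snoRNA genes called box C/D by their name or by a search for both boxes (2.44%), which were both genes and AT1G06263. AT1G06267 holds it at positions 50 to 56 but was outside that list, since its C box was not found. This motif was singled out after the positions of the peaks were seen.

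Over 90 aligned bases AT1G06233 and AT1G06263 were 95.6% identical. They differed by T20A, A22G, T84C and T86C, with the base of AT1G06233 first and positions counted from its 5′ end. AT1G06237 and AT1G06267 were 97.4% identical over 77 bases and differed by T9C and T59C. The first of these falls in the C box, which by this search AT1G06267 lacked. Of the 25-nt words of each gene, 46.8% (37 of 79) recurred for AT1G06233 and 47.2% (25 of 53) for AT1G06237, in the copy and nowhere else in the nuclear genome. They form a single block at positions 23 to 83 of AT1G06233 and 10 to 58 of AT1G06237. Reads of a gene and of its copy that lie wholly within it cannot be told apart, and how reads with several matches were placed is not stated.

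Positions 27 to 39 of AT1G06237, TTGTGACACCCAG, are complementary to the last 13 bases of 5.8S ribosomal RNA, positions 152 to 164, which read CTGGGTGTCACAA (chromosome 3, 14199904 to 14199916). A single base separates this run from the inner CTGA. The longest run of AT1G06233 complementary to ribosomal RNA was 10 nt, GGCTTAATCT at positions 36 to 45, against bases 41 to 50 of 18S ribosomal RNA (chromosome 3, 14197717 to 14197726). Runs of 13 nt or more occurred in 40.7% of the 123 box C/D genes, and runs of 10 nt or more in 82.9%, so by length neither run stands apart. A match of letters is a description and shows no target.

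Peaks were listed per library, each with a whole number in its name taken here as its number of reads. AT1G06233 held 1670, 7373, 2048 and 4958 reads with GFP-FIB1 and 1796, 7103, 2012 and 1068 reads with CFP-FIB2, in the order of replicates 1 to 4. In GFP replicates 1 to 4 it held 0, 53, 80 and 170 reads. Every library of both tagged proteins was above every GFP library, and a 0 means only that no peak was listed. AT1G06237 held 344, 44249, 26220 and 32248 reads with GFP-FIB1 and 2122, 41256, 13586 and 8257 reads with CFP-FIB2. The GFP replicates held 0, 56, 276 and 1726 reads in it. Its GFP-FIB1 replicate 1 lay below GFP replicate 4, so these 2 groups overlap in AT1G06237.

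Libraries held between 2811379 and 12438185 reads in peaks, and levels were therefore given as RPM, which are reads scaled to the reads in tested genes with TMM factors and given per 1000000 of them. The scaling factor was 0.324 for CFP-FIB2 replicate 4 and 0.890 to 1.47 for the other libraries. AT1G06233 averaged 634 ± 283 RPM with GFP-FIB1, 393 ± 230 RPM with CFP-FIB2 and 12.6 ± 12.9 RPM with GFP (SD, n = 4 each). AT1G06237 averaged 3894 ± 2686 RPM with GFP-FIB1, 2107 ± 1630 RPM with CFP-FIB2 and 88.4 ± 149 RPM with GFP (SD, n = 4 each). These levels are of RNA recovered with each protein, and without input RNA they do not give its amount in the seedlings. In libraries from whole seedlings, fewer cells with an RNA and less RNA per cell cannot be told apart either.

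**Figure D1:**
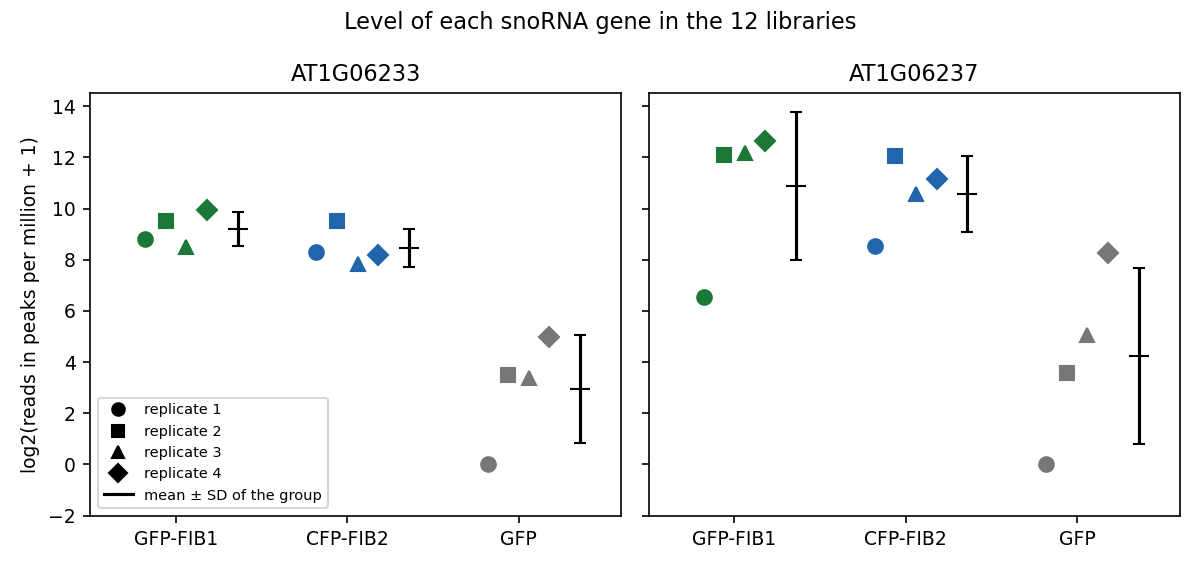
Level of AT1G06233 (left) and AT1G06237 (right) as log2(RPM + 1) in each library, with replicates as symbols and the mean ± SD of each group (n = 4) as a bar. AT1G06233 lay between 227 and 986 RPM in the 8 tagged libraries and between 0 and 30.6 RPM with GFP. For AT1G06237, replicate 1 of GFP-FIB1 had 93.0 RPM and GFP replicate 4 had 310 RPM.

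On the scale of log2(RPM + 1), AT1G06233 was higher by 6.23 ± 1.11 with GFP-FIB1 and by 5.50 ± 1.11 with CFP-FIB2 than with GFP (SE, limma over all 12 libraries). AT1G06237 was higher than with GFP by 6.64 ± 1.64 with GFP-FIB1 and by 6.35 ± 1.64 with CFP-FIB2. By size, AT1G06237 and AT1G06233 stood at places 3 and 6 of 19539 genes tested for GFP-FIB1, and at places 5 and 15 for CFP-FIB2. All 4 libraries of the tagged protein lay above all 4 GFP libraries in 0.942% of genes tested for GFP-FIB1, which included AT1G06233 and not AT1G06237. For CFP-FIB2 this held in 1.26% of genes tested, both members included. The 2 comparisons share the GFP libraries, and the members were chosen on them, so nothing is read from these counts. Of 123 box C/D genes, 94 were tested, and their median log2 difference from GFP was 4.24 with GFP-FIB1, while with CFP-FIB2 it was 4.01. Medians over all genes tested were 0.06 and 0.09, and the medians of the 25 tested box H/ACA genes (of 53), which guide pseudouridylation without fibrillarin, were 0.60 and 1.06. Genes were classed as H/ACA by name, or by length and an ACA near the 3′ end, with no search for an H box. With overlapping peaks all kept, 115 of 123 box C/D genes were tested, with medians of 4.41 (GFP-FIB1) and 4.32 (CFP-FIB2), and limma called 1 of 19529 genes higher in each (0.00512%).

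The 12 libraries were put into 3 sets by the correlation of protein-coding gene levels, a split found from the peak lists that no label gives. Set A held the first replicate of both tagged proteins and replicates 1 and 2 of GFP. Set B held replicate 2 of each tagged protein and GFP replicate 3. Set C held replicates 3 and 4 of each tagged protein and GFP replicate 4. Across 4488 protein-coding genes, which are not independent replicates, libraries of 1 set correlated at r of 0.46 to 0.87. Set A correlated with the others at 0.16 to 0.30, and sets B and C with each other at 0.51 to 0.68. The last range lies inside that within sets, so these values set apart set A but do not separate sets B and C. With the set as a term, the differences for AT1G06233 were 5.97 (GFP-FIB1 over GFP) and 5.24 (CFP-FIB2 over GFP), and those for AT1G06237 were 5.47 and 5.18. With that term limma called 0.543% of genes tested higher for GFP-FIB1 over GFP and 0.496% for CFP-FIB2 over GFP. Without the 4 libraries of set A the differences were 5.15 and 4.34 for AT1G06233 and 5.64 and 4.59 for AT1G06237. In set A alone, AT1G06237 had 93.0 RPM with GFP-FIB1 and 375 RPM with CFP-FIB2, against 0 and 10.9 RPM with GFP.

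The comparison of GFP-FIB1 with CFP-FIB2 asked whether either paralog recovered more of these RNAs. AT1G06233 had 451, 736, 364 and 986 RPM with GFP-FIB1 and 318, 733, 227 and 293 RPM with CFP-FIB2, in replicates 1 to 4. The groups overlapped, with a log2 difference of 0.73 ± 1.11 (SE; 95% interval −1.59 to 3.06; limma adjusted p = 1.00). Paired by replicate number, AT1G06233 was higher with GFP-FIB1 in 4 of 4 pairs, with replicate 2 nearly level (736 against 733 RPM). The share of all genes with this pattern is not given, so nothing is read from it. With the number as a block the 95% interval for AT1G06233 was −1.04 to 2.51 (limma adjusted p = 1.00). AT1G06237 had 93.0, 4415, 4657 and 6412 RPM with GFP-FIB1 and 375, 4256, 1532 and 2262 RPM with CFP-FIB2. These groups overlapped too, with a log2 difference of 0.29 ± 1.64 (SE; 95% interval −3.16 to 3.74; limma adjusted p = 1.00). AT1G06237 was higher with GFP-FIB1 in 3 of 4 pairs, with an interval of −1.65 to 2.23 under the block. The intervals leave room for differences of several-fold in either direction. With the set as a term the 95% intervals were −0.81 to 2.28 for AT1G06233 and −1.40 to 1.98 for AT1G06237. Over all 19539 genes limma called 0 (0%) in this comparison, with 230 at an unadjusted p under 0.05. With the set as a term it also called 0, with 868 at an unadjusted p under 0.05. All 4 GFP-FIB1 libraries lay above all 4 CFP-FIB2 libraries in 0.496% of genes, neither member among them.

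Along AT1G06233, the peak with most reads stood in different places in different libraries. In replicate 1 of GFP-FIB1 it covered positions 8 to 15 with 1623 of the gene's 1670 reads, and in replicate 1 of CFP-FIB2 positions 8 to 17 with 1568 of 1796 reads. Both overlapped the C box near the 5′ end. In replicate 2 of both tagged proteins it covered positions 67 to 80. It covered positions 57 to 74 and 56 to 82 in GFP-FIB1 replicates 3 and 4, and 57 to 82 in both of the matching CFP-FIB2 replicates. All 6 of these peaks lay over GTGATTG at positions 72 to 78, at least in part, and no peak of replicates 2 to 4 of either tagged protein touched the C box. GFP replicate 4 had a single peak at 57 to 82, where it held 170 reads. The strongest peaks of GFP replicates 2 and 3 covered 69 to 72 and 64 to 96.

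Along AT1G06237 the places differed less. The strongest peak of replicate 1 covered positions 33 to 36 with GFP-FIB1 and 33 to 38 with CFP-FIB2, inside the stretch complementary to 5.8S ribosomal RNA. In replicate 2 of both tagged proteins it covered 35 to 55, in replicate 3 of both 31 to 55, and in replicate 4 of both 31 to 57. These 6 peaks ran from the complementary stretch through the inner CTGA into GTGATTG at positions 50 to 56, and held 8199 to 42180 reads. GFP replicates 2, 3 and 4 had their strongest peak at 44 to 76, 39 to 76 and 32 to 57. No peak in any library reached the C box of AT1G06237, at positions 5 to 11.

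**Figure D2:**
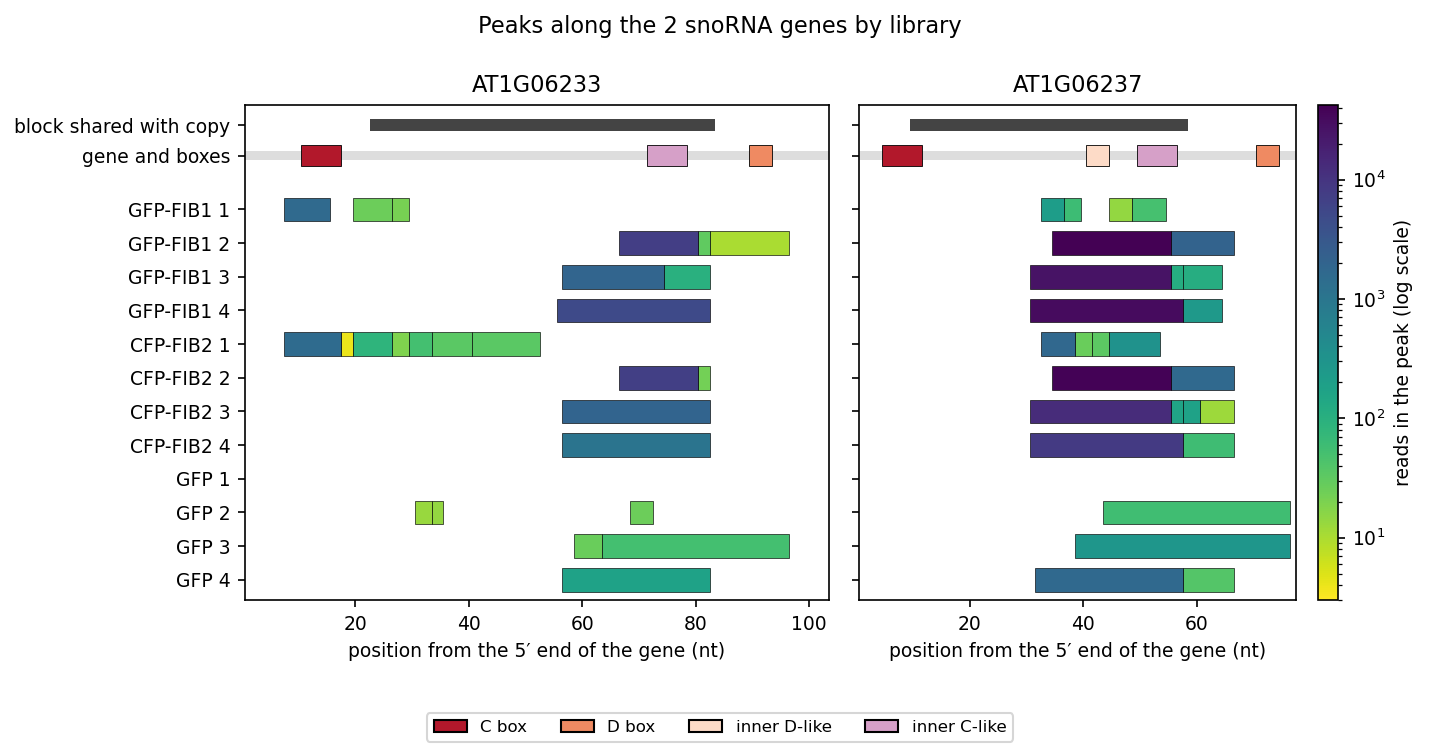
Peaks along AT1G06233 (left) and AT1G06237 (right), by library, against the position from the 5′ end of the gene, coloured by the reads in the peak on a log scale. The upper rows show the boxes and the block of 25-nt words shared with the copy. In AT1G06233 the strongest peak began at position 8 in replicate 1 of both tagged proteins and at 56 to 67 in their other replicates, while in AT1G06237 it began at 31 to 35 in all 8 tagged libraries.

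The last columns of the peak lists name a short stretch within each peak, whose meaning is not stated. For the strongest peak of AT1G06233 it began at positions 72 to 78 in the 6 libraries of replicates 2 to 4 of the tagged proteins and at 13 in both replicate 1 libraries. For AT1G06237 it began at 53 or 55 in those 6 libraries, at 33 in GFP-FIB1 replicate 1 and at 35 in CFP-FIB2 replicate 1. In both genes it thus began within GTGATTG in the 6 tagged libraries outside set A. The same held in both GFP libraries outside set A, replicates 3 and 4, where it began at 75 and 77 in AT1G06233 and at 56 and 55 in AT1G06237. In the 6 tagged libraries the stretch in AT1G06233 ended at 74 to 81, mostly past the end of the motif at 78. The motif was chosen after these positions were seen, so nothing is read from the match.

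Peak place was measured as the midpoint of the strongest peak, as a percentage of gene length from the 5′ end. It was taken for all box C/D genes with at least 10 reads, the members included. In GFP-FIB1 replicate 1 their median was 12.2% (88 genes), with 64 below 50%, and in CFP-FIB2 replicate 1 it was 40.3% (97 genes), with 61 below 50%. In replicates 2 to 4 of both tagged proteins the medians were 59.4% to 70.9%. The GFP libraries of set A had medians of 56.8% (20 genes) and 61.5% (67 genes). AT1G06233 stood at 10.7% and 11.7% in the replicate 1 libraries of GFP-FIB1 and CFP-FIB2, and at 63.1% to 70.9% in their other replicates. The mean of replicates 2 to 4 lay 56.1 points further along the gene than replicate 1 for GFP-FIB1, a difference reached by 21 of 86 genes, and 56.6 points further for CFP-FIB2, reached by 16 of 93. AT1G06237 moved by 12.3 and 11.04 points on this measure, against medians over those genes of 33.5 points (GFP-FIB1) and 10.3 points (CFP-FIB2). Peaks in replicate 1 were also shorter, with a median over genes of 4 nt for GFP-FIB1 and 5 nt for CFP-FIB2, against 10 to 13 nt in their other replicates. The part of fragment length or of the library set in these positions was not tested.

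**Figure D3:**
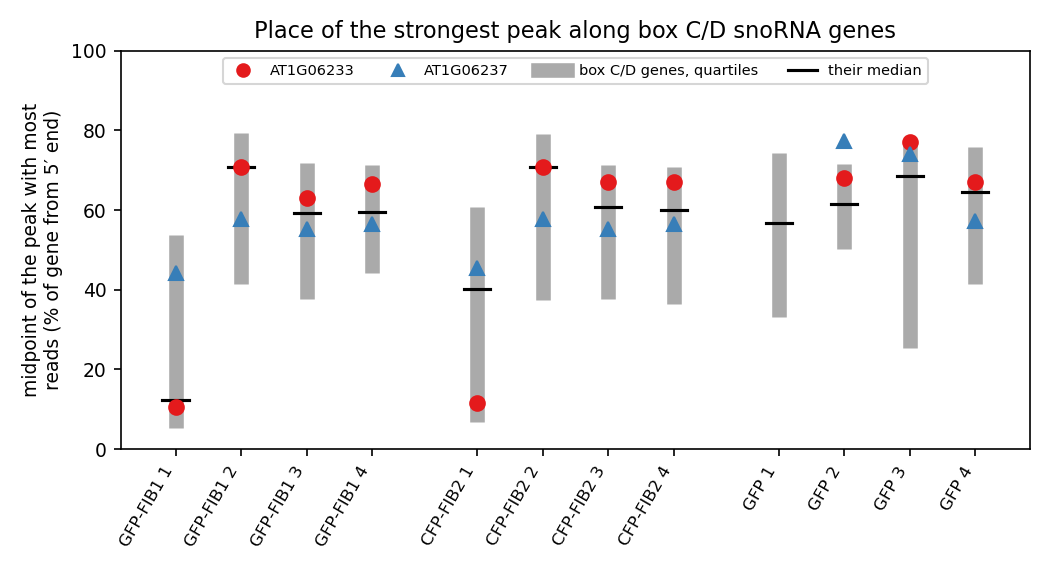
Midpoint of the strongest peak as a percentage of gene length from the 5′ end, by library, for AT1G06233 (circles) and AT1G06237 (triangles), with the quartiles (grey) and median (line) over box C/D genes with at least 10 reads. AT1G06233 was at 10.7% (GFP-FIB1) and 11.7% (CFP-FIB2) in the replicate 1 libraries and at 63.1% or more in their other replicates.

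The ratio of the genes within a library does not depend on its depth. Reads per base of gene in AT1G06237 were 0.276, 8.03, 17.1 and 8.70 times those in AT1G06233 in GFP-FIB1 replicates 1 to 4. In CFP-FIB2 replicates 1 to 4 the ratio was 1.58, 7.77, 9.03 and 10.3. With GFP it was 1.41, 4.61 and 13.6 in replicates 2 to 4, and replicate 1 had no peak in either gene. The 3 libraries of set A with peaks had the 3 lowest ratios, and GFP-FIB1 replicate 1 was the single library in which AT1G06233 held more reads per base than AT1G06237. The log2 ratio of reads, with 1 read added to each gene, averaged 1.67 ± 2.68 with GFP-FIB1 and 2.12 ± 1.26 with CFP-FIB2 (SD, n = 4 each). The difference of −0.45 was within the spread between replicates (two-sided exact permutation test over 70 splits, p = 0.800, adjusted over 3 measures 0.857). The smallest p this design allows is 0.0286.

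**Figure D4:**
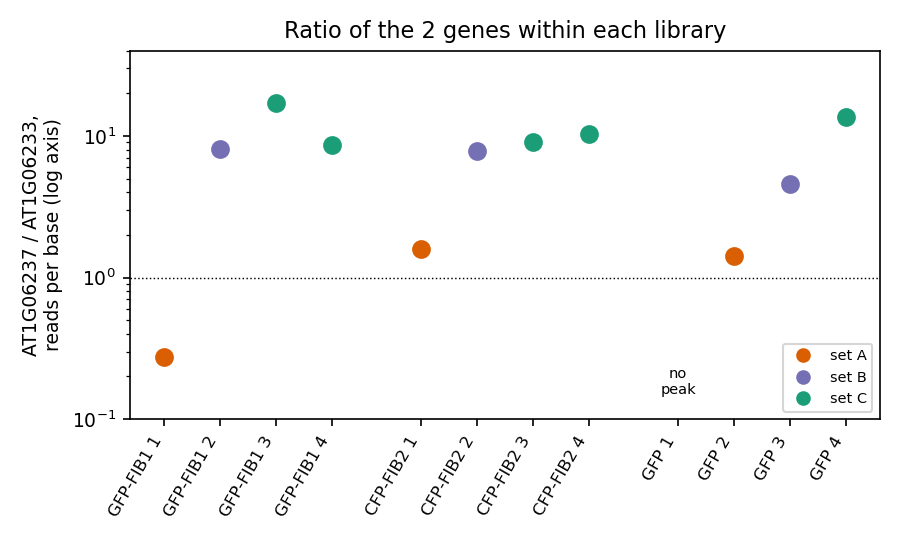
Reads per base of gene in AT1G06237 divided by those in AT1G06233 (log axis), by library and coloured by library set. The set A points are at 0.276 (GFP-FIB1), 1.58 (CFP-FIB2) and 1.41 (GFP), and the set B and C points lie between 4.61 and 17.1.

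Peaks covered 25.3 ± 5.12 nt of AT1G06233 with GFP-FIB1 and 28.3 ± 12.1 nt with CFP-FIB2 (SD, n = 4 each; exact permutation p = 0.857, adjusted 0.857). They covered 29.3 ± 8.22 nt of AT1G06237 with GFP-FIB1 and 31.3 ± 7.09 nt with CFP-FIB2 (exact permutation p = 0.600, adjusted 0.857). The 3 nt and 2 nt between the means were less than the spread between replicates. With GFP, 18.3 ± 17.02 nt of AT1G06233 and 26.5 ± 17.8 nt of AT1G06237 were covered, replicate 1 counting as 0. Within replicate numbers (16 sign flips, smallest p 0.125) and within library sets (24 orders, smallest p 0.0833), none of these 3 measures could pass 0.05. Nothing is read from those 2 forms of the test.

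In the tagged libraries most of the signal lay where gene and copy are identical. Of 26 peaks in AT1G06233, 19 lay wholly inside the shared block and 4 covered a base that differs from AT1G06263. Of 27 peaks in AT1G06237, 17 lay wholly inside it and 9 covered a base that differs from AT1G06267. In replicate 1 of both tagged proteins the strongest AT1G06233 peak, at positions 8 to 15 or 8 to 17, lies outside the block. It covers no base that differs from AT1G06263, so gene and copy are identical there too. In GFP-FIB1 replicate 1 the strongest AT1G06263 peak, with 222 reads, aligned with positions 8 to 9 of AT1G06233. The AT1G06237 peaks of GFP replicates 2 and 3, at 44 to 76 and 39 to 76, run past the end of the shared block. Counting all peaks by the authors' names, AT1G06233 had 1670, 7373, 2048 and 4958 reads and its copy AT1G06263 had 222, 4752, 655 and 1001 in GFP-FIB1 replicates 1 to 4. With CFP-FIB2, AT1G06233 had 1796, 7103, 2012 and 1068 reads and AT1G06263 had 231, 5654, 681 and 342. With GFP the copy held 0, 7, 0 and 37 reads. AT1G06237 had 344, 44249, 26220 and 32248 reads with GFP-FIB1 and its copy AT1G06267 had 4, 13095, 4593 and 5412. With CFP-FIB2, AT1G06237 had 2122, 41256, 13586 and 8257 reads and AT1G06267 had 67, 15046, 2706 and 1652. With GFP the copy held 0, 9, 62 and 318 reads. Both genes held more reads, and more per base of gene, than peaks named for their copies in all 11 libraries where they had reads. Peaks over the copies were also named for AT1G29465 and are not in these counts. In GFP-FIB1 replicate 4 the strongest AT1G29465 peak, which lay within AT1G06267, held 9520 reads, against 5412 counted for that copy. Copies that share reads are not independent of the genes.

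**Figure D5:**
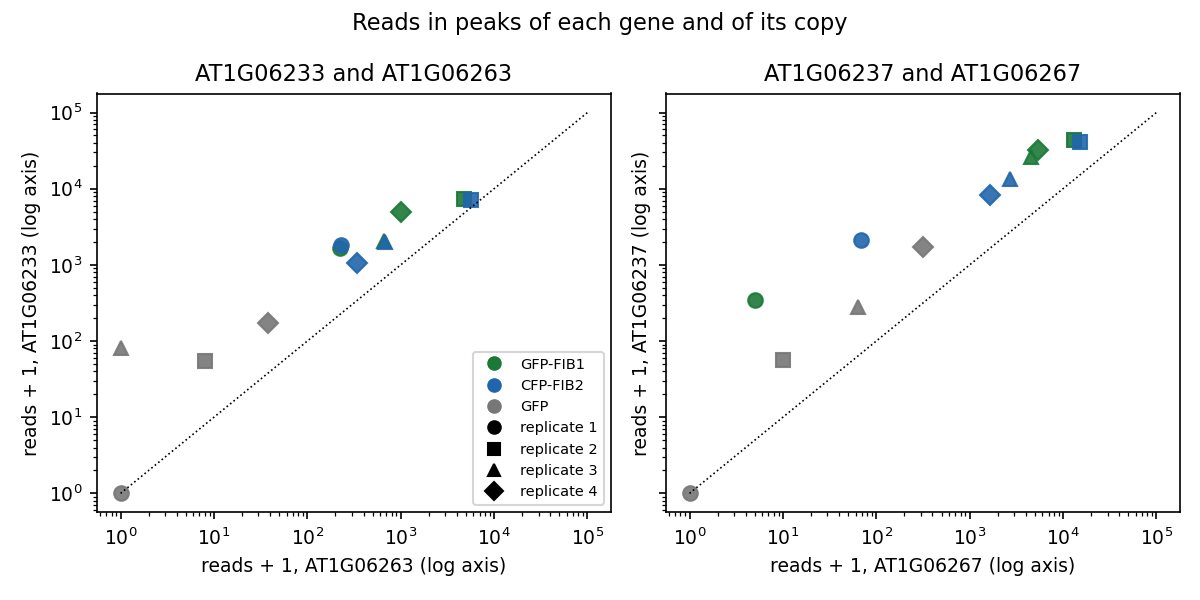
Reads + 1 in peaks of each gene against reads + 1 in peaks named for its copy, on log axes, with groups as colours, replicates as symbols and a dotted line at equality. In the 11 libraries with reads, both genes lie above the line, and GFP replicate 1 has 0 reads in all 4 genes. Peaks over the copies that were named for AT1G29465 are not included.

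Peaks were also listed for the next genes of the row. AT1G06243 lies 53 nt downstream of AT1G06237 and partly inside the protein-coding gene AT1G29418, whose name is given to overlapping peaks. With all peaks by name it had 230, 5545, 3729 and 5185 reads with GFP-FIB1 and 332, 5801, 3010 and 1938 with CFP-FIB2, against 10, 93, 302 and 370 with GFP. AT1G06247 had 0, 1109, 580 and 833 reads with GFP-FIB1 and 0, 1230, 610 and 316 with CFP-FIB2, against 0, 0, 32 and 36 with GFP. It had no peak in replicate 1 of either tagged protein, in contrast to AT1G06233. AT1G06253, classed as H/ACA by its length and an ACA near its 3′ end, had at most 15 reads in any library and was not among the genes tested. On the other strand, the noncoding gene AT1G06227 overlaps both members and had 1 peak over AT1G06237, in CFP-FIB2 replicate 1, with 14 reads.

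Across the 12 libraries, the gene most like AT1G06233 in log2(RPM + 1) was the snoRNA gene AT4G39363 (Pearson r = 0.98). It was followed by the noncoding gene AT5G02645 (0.95) and the box C/D genes AT1G20015 (0.95), AT1G19376 (0.94) and AT2G20721 (0.93). The genes most like AT1G06237 were all snoRNA genes, AT1G08327 (0.99), AT3G47348 (0.98), AT3G03175 (0.98), AT5G07725 (0.98) and AT2G35387 (0.98). The members correlated with each other at 0.91, which put AT1G06237 at place 16 for AT1G06233 and AT1G06233 at place 66 for AT1G06237. These values describe 12 points that share libraries, depth and a common contrast with GFP.

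The 8 genes for proteins of the box C/D particle were listed with earlier results of these data known, which limits their p-values against GFP. Of these, 6 were tested, and limma called 0 of them higher and 0 lower in any of the 3 comparisons. Against GFP it called 0 of 19539 genes (0%) in either direction. With the library set as a term, 1 of the 6 tested genes was called higher for GFP-FIB1 over GFP, where 0.543% of all genes were. The FIB1 gene AT5G52470, which encodes fibrillarin, had 334 ± 239 RPM with GFP-FIB1, 225 ± 98.8 RPM with CFP-FIB2 and 25.2 ± 13.5 RPM with GFP (SD, n = 4 each). The log2 differences from GFP were 3.52 ± 1.03 and 3.18 ± 1.03 (SE, limma adjusted p = 0.789 and 1.00), the largest among the 6 tested genes. Those of the FIB2 gene AT4G25630, the other fibrillarin gene, were 1.25 for GFP-FIB1 over GFP and 1.28 for CFP-FIB2 over GFP, and those of NOP56 (AT1G56110) were 1.82 and 1.99. In the same order, AT5G27120 had 0.30 and −0.72, AT3G05060 had −0.52 and −1.13, and AT4G22380 had −0.08 and 0.69. The medians over the 6 genes were 0.78 and 0.99. Both fibrillarin genes host an intronic snoRNA gene, and peaks over such a gene can be named for the host. How much of the FIB1 and FIB2 levels came from mRNA, transgene or snoRNA was not tested. The tissue was checked with 9 leaf mRNAs of Rubisco, its activase and light-harvesting proteins, all of which were tested. Their summed level was 173 to 719 RPM with GFP-FIB1, 232 to 613 RPM with CFP-FIB2 and 125 to 374 RPM with GFP.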

How the data were processed

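CLIP-seq peaks were analysed in 12 libraries, 4 per group, grouped by the sample titles. The members and gene lists were chosen with earlier results of these data known. The authors deposited 1 headerless peak list per library, with a p-value for each peak of at most 0.05. The authors deposited the other number used, a whole number in each peak's name, without a unit, and it was read as reads in the peak. The submitters' processing notes name DESeq2. The aligner, caller, build, duplicate removal and placement of multiply matching reads are not stated in these sources. Because the number is not stated to be a count, no count model was run. Total depth is unknown, reads may include PCR copies, and no interval for counting error is given.

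Of 624188 nuclear peaks named for an annotated gene, 99.9% lay within its TAIR10.1 bounds and 100% on its strand, so RefSeq coordinates and sequences of that build were used, written from 1. Where peaks of a library overlapped, the one with more reads was kept (4107 removed, none in either gene). This takes reads from genes that lie inside others. Reads per gene were filtered (10 reads at median depth in 4 libraries, 15 in all, leaving 19539 genes), scaled by TMM (trims of 30% and 5%), and tested as log2(RPM + 1) by limma 3.58.1 with a mean-variance trend over all 12 libraries and Benjamini-Hochberg adjustment, at an adjusted p under 0.05. The fit was tested on simulated counts that held no library sets, so that test does not give its power in these data. Ratios and covered lengths were tested by exact permutation.

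Replicates with the same number deviated together between GFP-FIB1 and CFP-FIB2 (r = 0.35 to 0.55 over genes), so the numbers were taken to pair them, but not against GFP (lowest r −0.05 and −0.21). Named genes were the members, the 5 most alike genes of each, genes within 1000 bases, the copies and the particle proteins. Alternatives were the replicate block, a term for 3 library sets, other scalings, pseudocounts and filters, all peaks, stricter peaks (p of at most 0.01), a peak counted for each gene it touches, and leaving out each replicate. Leaving out set A was added after seeing the data.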

Additional observations from a re-analysis of the deposited data

Results flagged for a closer look

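In 22 groups of 4 values looked at for a library far from the others, 4 stood out, and chance gives about 1 in 20. The strongest AT1G06233 peak of CFP-FIB2 replicate 1 began at position 8 of the gene, far below the 57 to 67 of the other replicates. In GFP-FIB1 the same peak of replicate 1 also began at position 8. Peaks covered 17 nt of AT1G06237 in GFP-FIB1 replicate 1, against 32 to 34 nt in the other replicates. With GFP, AT1G06237 had 310 RPM in replicate 4, against 0 to 32.5 RPM in the others, and without GFP replicate 4 its log2 differences from GFP were 7.99 (GFP-FIB1) and 7.70 (CFP-FIB2), against 6.64 and 6.35 with all libraries. In GFP replicate 1 peaks covered 0 nt of AT1G06237, since none was listed. Without GFP replicate 1 the log2 differences of AT1G06237 from GFP were lower, 5.23 (GFP-FIB1) and 4.94 (CFP-FIB2). On the minus strand, outside the measured signal, 1 peak with 14 reads lay over AT1G06237 in CFP-FIB2 replicate 1, named for the antisense noncoding gene AT1G06227, and the GFP libraries had 0 there.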

How the results depend on the processing

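The higher levels of both genes with GFP-FIB1 and CFP-FIB2 than with GFP kept their direction in all 18 alternative fits of each. On the log2 scale they ranged from 4.90 to 7.14 (AT1G06233) and 5.23 to 8.08 (AT1G06237) for GFP-FIB1, and from 4.18 to 6.40 and 4.59 to 7.70 for CFP-FIB2. With the replicate number as a block, the estimates stayed at 0.73 for AT1G06233 and 0.29 for AT1G06237 in GFP-FIB1 over CFP-FIB2, and limma called 0 genes in that comparison (528 at an unadjusted p under 0.05). Flips within replicate numbers could not pass for any of the 3 permutation measures, since their smallest p is 0.125. Orders within library sets could not pass either, with a smallest p of 0.0833. Calls against GFP under the block were not counted. GFP-FIB1 over CFP-FIB2 gave 0 called genes in all 18 fits. There AT1G06233 kept its sign (0.49 to 1.18, limma adjusted p 0.969 to 1.00). AT1G06237 ranged from −0.39 to 1.73 when a replicate was left out, with the sign reversed in 4 of those fits (−0.12, −0.15 and −0.30 without GFP-FIB1 replicates 2, 3 and 4, and −0.39 without CFP-FIB2 replicate 1; limma adjusted p 0.983 to 1.00 over all fits). Leaving out a replicate also reversed the log2 ratio of the genes (−1.12 to 0.87) and the difference in covered length of AT1G06233 (−7.08 to 2.58 nt) and AT1G06237 (−5.42 to 2.08 nt), none past the threshold; the cause was not tested. Which values are precise is limited by unknown total depth, by 4 libraries a group, and by the block shared with the copies.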
